A study of Mus musculus with 14 samples.

Results

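Replication-dependent histone genes encode the H1, H2A, H2B, H3 and H4 proteins that package newly copied DNA. They were chosen here as the genes whose GENCODE M21 symbol starts with Hist1h, Hist2h, Hist3h or Hist4h. The gene tables mostly carry newer symbols (Hist1h1c is listed as H1f2), so only 3 rows of the newborn table and 0 rows of the postnatal day 22 table have such a prefix in their own symbol. Those 3 were Hist1h2bp, Hist1h4m and Hist1h4n. Matched through the Ensembl identifier instead, the prefix found 51 of the 19337 genes in the newborn (P0) table and 13 of the 11613 genes in the day 22 (P22) table. The annotation holds 70 such genes, of which 19 were in neither table.

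The study sequenced RNA from mouse retina at P0 and P22 to ask what the long noncoding RNA Peanut does in retinal development. P0 held 4 libraries from Peanut +/- retinas (het) and 4 from Peanut -/- retinas (KO), and P22 held 2 het and 4 KO libraries. No wild-type retina was among the samples used here, so the het libraries, which carry 1 intact allele, are the controls. The strain, the way the allele was made, and whether a library is 1 animal or a pool are not given in the sources used here, so p-values measure only the spread between these libraries.

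The genes lie in 4 clusters of the GRCm38 assembly. Hist1 on chromosome 13 holds 56 of the 70 annotated genes and 42 of the 51 in the P0 table. Of these, 55 lie between 21715763 and 23934851, and the processed pseudogene Hist1h2al, which was in neither table, lies apart at 51202727 to 51203065. Hist2 on chromosome 3 (96219865 to 96270132) holds 10 and 5, Hist3 on chromosome 11 (58948920 to 58956830) holds 3 and 3, and Hist4 on chromosome 6 (136801553 to 136804415) holds 1 and 1. By class the P0 table had 5 of 6 annotated H1 genes, 8 of 20 H2A, 15 of 19 H2B, 10 of 12 H3 and all 13 H4. H2A, H2B, H3 and H4 form the core of the nucleosome, and H1 is the linker that binds DNA between cores.

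These genes are switched on as cells enter S phase, from the histone locus body, where NPAT acts as coactivator. Most of their mRNAs have no poly(A) tail. They end just after a short hairpin in the 3′ UTR that is bound by the protein SLBP and cut with the help of the U7 small nuclear RNA, and they are degraded when DNA replication stops. Some of the genes also give polyadenylated transcripts that run past the hairpin. In the newborn retina the dividing cells are retinal progenitors, and by P22 the retina is almost entirely postmitotic.

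The hairpin is shown because it is the feature that defines these transcripts and was not part of the choice of genes. A stem of 6 bases with a loop of 4 was searched within 100 bases after the stop codon of each annotated coding transcript. The stem had to pair fully and start with GG, and the loop had to start with TT, so hairpins of other letters were not counted. It was found in 44 of 67 genes with a coding model (65.7%). Over all mouse genes with a coding transcript, these histone genes included, it was found in 54 of 21830 (0.247%). Of the 67, 15 have an annotated 3′ UTR too short to hold a hairpin of 16 bases, as do H4c12, H2bc15 and H3c11, and are counted above as lacking one. Among the other 52 models the hairpin was found in 11 of 11 for H2A, 11 of 12 for H4, 4 of 5 for H1, 8 of 10 for H3 and 10 of 14 for H2B. In the sequences below the capitals mark stem and loop, written as DNA 5′ to 3′ from the GENCODE M21 transcripts.
H1f2 (H1): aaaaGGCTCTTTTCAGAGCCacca
H2bc11 (H2B): caaaGGCTCTTTTCAGAGCCacgc
H2bc12 (H2B): caaaGGCTCTTTTAAGAGCCacta
H4c4 (H4): caaaGGCCCTTTTCAGGGCCacta
H4c14 (H4): taacGGCCCTTTTTAGGGCCaacc
H4c11 (H4): taaaGGTCCTTTTCAGGACCacca
H2ac20 (H2A): aaaaGGCTCTTTTTAGAGCCacca
The form of H1f2 and H2bc11 was the commonest, with 26 genes of the H1, H2A, H2B and H3 classes. H4 genes carried 3 forms of their own, that of H4c4 in 7 genes, that of H4c14 in 2 and that of H4c11 in 2. The form of H2bc12 occurred in 6 genes and that of H2ac20 in 1.

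The promoters also differed by class in the motifs they held. RefSeq promoters (GRCm38.p6, 250 bases before to 50 after the start) matched 45 of the 51 genes, with 13 promoters for 12 H2B genes. The octamer ATTTGCAT, the element read by OCT1 in H2B promoters, was present on either strand in 5 of 8 H2A and 5 of 13 H2B promoters, in 0 of 5 H1, 8 H3 and 12 H4 promoters, and in 1.74% of all 32851 promoters. CCAAT was present in every H1, H2A, H2B and H3 promoter matched but in 3 of 12 of H4, against 37.4% of all. The H1 box AAACACA was present in 4 of 5 H1 promoters, 1 of 8 H2A, 1 of 13 H2B and 0 of H3 and H4, against 7.18% of all. TATAAA was present in 4 of 5 H1, 6 of 8 H2A, 7 of 13 H2B, 4 of 8 H3 and 8 of 12 H4 promoters, against 13.6% of all. No match says only that these letters were not in the window.

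The 250 bases before the RefSeq start are given for H1f5, H2bc11 and H4c12, which had the smallest p-values of their classes in the P0 comparison without KO 3 described below. Capitals mark the 4 motifs on either strand, and every match counts, overlaps included. H1f5 lies at chr13:21780626-21780875 on the minus strand, H2bc11 at chr13:22042948-22043197 on the plus strand and H4c12 at chr13:21750554-21750803 on the minus strand.
H1f5: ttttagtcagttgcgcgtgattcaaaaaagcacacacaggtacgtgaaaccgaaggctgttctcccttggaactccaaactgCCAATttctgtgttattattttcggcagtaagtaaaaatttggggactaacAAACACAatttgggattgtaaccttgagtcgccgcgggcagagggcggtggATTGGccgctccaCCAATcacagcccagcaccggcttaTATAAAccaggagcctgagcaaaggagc
H2bc11: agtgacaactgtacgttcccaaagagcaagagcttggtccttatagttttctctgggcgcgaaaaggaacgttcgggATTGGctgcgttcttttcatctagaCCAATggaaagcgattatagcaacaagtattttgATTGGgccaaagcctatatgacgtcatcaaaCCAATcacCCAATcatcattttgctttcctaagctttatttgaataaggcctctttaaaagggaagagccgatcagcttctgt
H4c12: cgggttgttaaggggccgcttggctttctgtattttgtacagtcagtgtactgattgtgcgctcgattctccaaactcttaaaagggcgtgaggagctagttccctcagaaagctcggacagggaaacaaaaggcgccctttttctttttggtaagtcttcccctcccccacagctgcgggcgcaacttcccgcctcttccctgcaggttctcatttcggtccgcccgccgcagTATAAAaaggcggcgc
H1f5 carried TATAAA 28 bases before the start, the H1 box at 117 bases and CCAAT at 168 and 53 bases, with a reverse-strand CCAAT at 66. H2bc11 carried 5 CCAAT matches and no octamer. H4c12 carried a single match, TATAAA at 16 bases. The 3 windows thus differed in the motifs they held.

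At P0 the 51 genes took between 0.712% and 1.27% of the reads of a library. Levels are in CPM, a gene's reads per 1000000 reads of its library in the table, and levels of different genes are compared only after dividing by the annotated exon length in kilobases. Over the 8 libraries H1 genes held 32.6% of the histone reads, H4 29.4%, H3 21.2%, H2B 16.3% and H2A 0.488%. The median level per kilobase was 510 CPM in H1, 208 in H3, 146 in H4, 92.7 in H2B and 5.97 in H2A.

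The highest level per kilobase was that of H4c6, an H4 gene, at 1172 CPM per kb. H2bc15 followed for H2B at 834, H3c11 for H3 at 747 and H1f2 for H1 at 668 CPM per kb. The highest H2A gene, H2ac15, reached 32.0 CPM per kb. By library H4c6 ranged from 780 to 1705 CPM per kb, H2bc15 from 642 to 1079, H3c11 from 445 to 1031 and H1f2 from 453 to 813. H4c6 was the highest of the 51 genes in every library, while the order of H2bc15, H3c11 and H1f2 changed between libraries. H2ac15, at 15.0 to 42.4, lay below all of them. In read numbers, which depend on length, H1f2 (1041 CPM), H4c4 (1026 CPM) and H1f4 (901 CPM) were highest.

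The annotation bears on these levels in ways that differ by class. All 20 annotated H2A genes overlap another annotated gene, most of them a predicted gene on the opposite strand, against 1 of 6 H1, 2 of 19 H2B, 2 of 12 H3 and 1 of 13 H4. Copies also share sequence, to a degree that differs by class. The unique share is the share of a gene's 50-base windows found in no other gene's transcripts, genes overlapping it left aside. Windows shared only with an overlapping gene thus counted as unique, so the share is an upper bound for genes with such an overlap. Its median was 97.7% in the H1 genes of the P0 table, 59.1% in H2A, 56.2% in H2B, 42.8% in H3 and 60.5% in H4. How reads that match several copies or overlapping genes were assigned, and whether strand was used, is not given in the sources used here. Values of single genes with a low unique share, such as H3c11 (12.4%), H2bc15 (13.6%) and H4c12 (28.5%), are therefore uncertain between copies, and the part of such assignment in the low H2A level was not tested.

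Summed over the 51 genes, the het libraries 1 to 4 had 8416, 7120, 12701 and 11881 CPM, and the KO libraries 1 to 4 had 9771, 8335, 11684 and 9942 CPM. The means were 10030 ± 2686 (SD, n = 4) and 9933 ± 1372 (SD, n = 4), a KO to het ratio of 0.990. Het 3, het 4 and KO 3 were the highest, and the KO range lay inside the het range. The spread within het was thus much wider than the difference between genotypes: the highest het library had 1.78 times the lowest. In the same het libraries the summed lists of other genes differed by 1.02 times (histone transcription and 3′ end formation) to 1.97 times (erythroid markers), with 1.03 times for 21 DNA replication genes, 1.21 times for G2 and mitosis genes and 1.17 times for progenitor markers.

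**Figure D1:**
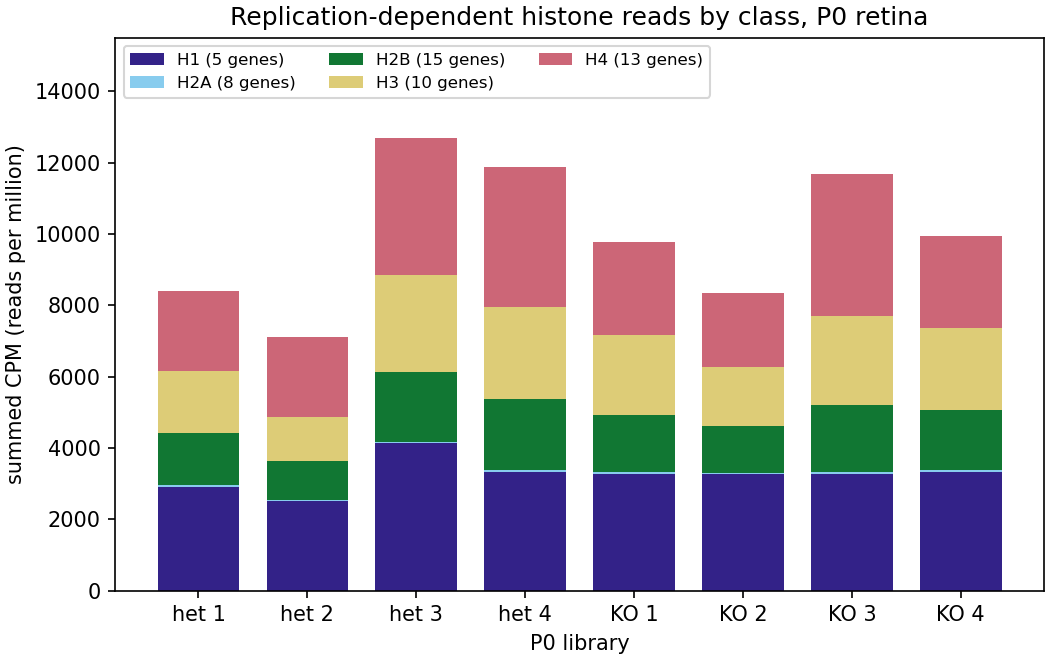
Summed CPM of the 51 replication-dependent histone genes in each P0 library, stacked by histone class; H2A, at 33.1 to 58.6 CPM, is a line too thin to see at this scale. Het 3, het 4 and KO 3 stand highest, and the H1 part of the 4 KO bars is nearly level.

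The classes did not vary alike. H1 summed to 2910, 2511, 4130 and 3326 CPM in het 1 to 4 and to 3266, 3272, 3271 and 3337 CPM in KO 1 to 4. The KO libraries thus lay within 1.02 times of each other in H1, beside 1.64 times among the het libraries. H4 summed to 2249, 2253, 3860 and 3927 CPM in het 1 to 4 and to 2598, 2059, 3970 and 2582 CPM in KO 1 to 4, where KO 3 was the highest of all 8 libraries. H3 ran from 1222 to 2709 CPM in het and from 1645 to 2497 in KO, and H2B from 1098 to 1990 and from 1327 to 1893.

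Gene by gene, het 3 and het 4 were both above het 1 and het 2 in 41 of the 51 genes. Het 2 was the lowest library for 27 genes and KO 2 for 19. KO 3 exceeded the other 3 KO libraries in 35 genes, including all 13 H4 genes, 9 of 10 H3 and 10 of 15 H2B but 2 of 5 H1 and 1 of 8 H2A. The median coefficient of variation over the 51 genes was 26.2% in het and 22.04% in KO, and 16.0% among the KO libraries other than KO 3.

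**Figure D2:**
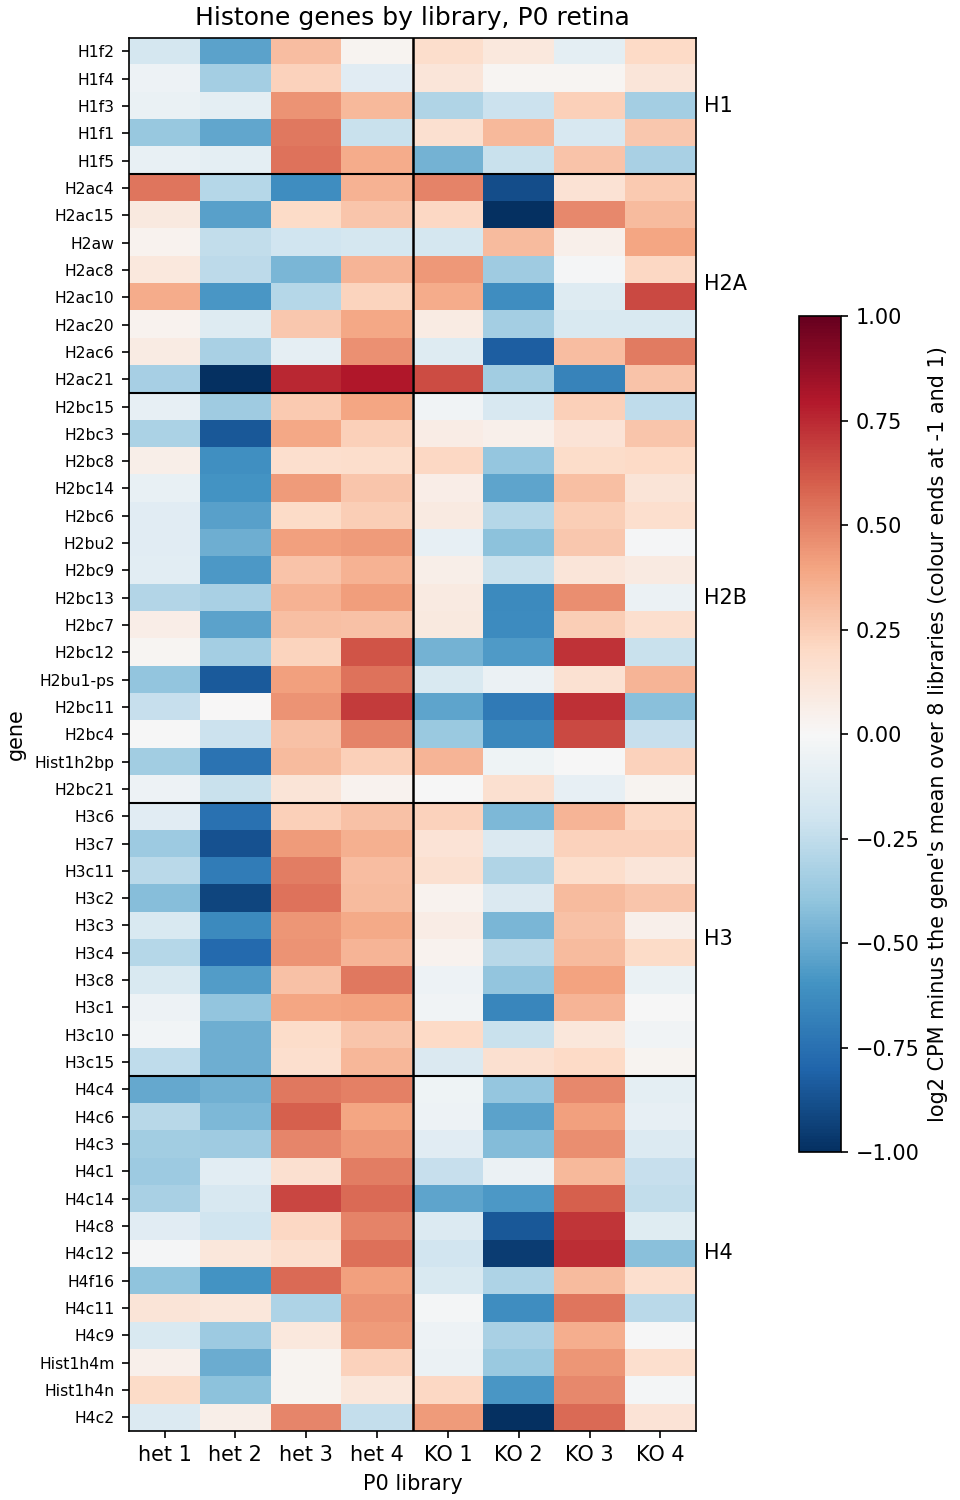
Each row is 1 of the 51 genes and each column a P0 library; colour is log2 CPM minus the mean of that gene over the 8 libraries, with genes grouped by class and sorted by mean CPM. Het 3, het 4 and KO 3 are red for most H2B, H3 and H4 genes, het 2 and KO 2 are blue, and the H2A rows vary by library in other ways.

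KO 3 stood apart from the other KO libraries across the whole table, with a score of -27.6 on the first principal component beside -29.4 in het 4 and 22.7 to 29.9 in the other KO libraries. No row bears the name Peanut. Gm11454, the only gene called at P0, had 0.839 to 1.78 CPM in the het libraries and no read in any KO library, KO 3 included. The retinal progenitor markers (9 genes, Sox2 among them) summed to 3506 to 4107 CPM in het, to 2713 to 2991 CPM in KO 1, 2 and 4 and to 4460 CPM in KO 3. The tests at P0 are therefore given with KO 3 and without it. P0 libraries held 14974704 to 19772809 reads, and P22 libraries 1794862 (het 1) to 22451839.

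With all 8 P0 libraries, 0 of the 51 histone genes passed the test (edgeR's quasi-likelihood test, adjusted p under 0.05 over all genes), where 0.00517% of all genes did, a single gene. None of the 51 had an unadjusted p under 0.05, where 8.16% of all genes did, DESeq2 also called 0, and the smallest edgeR adjusted p was 0.526. Of the fold changes, 20 were above 0 and 31 below (24 and 27 with library totals as the only scaling), with a median of -0.04 on the log2 scale (KO over het) beside 0.03 over all genes. In none of the 51 did the genotypes' libraries lie apart without overlap, where 2.32% of all genes did. In the table the authors deposited, 0 of the 51 had a false discovery rate under 0.05, where 0.176% of all genes did. In whole retina, fewer cells of a type and less RNA per cell cannot be told apart.

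Among H1 genes, H1f5 had 350, 344, 538 and 476 CPM in het 1 to 4 and 265, 315, 450 and 295 CPM in KO 1 to 4. H1f3 had 468, 459, 671 and 615 CPM in het and 398, 422, 579 and 388 CPM in KO. Both linker genes had 3 KO libraries below every het library, with KO 3 inside the het range. Their log2 fold changes with all 8 libraries were -0.39 ± 0.20 (SE; edgeR adjusted p = 0.526) and -0.33 ± 0.17 (adjusted p = 0.526).

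The other 3 H1 genes had fold changes above 0. H1f2, the most abundant, had 907, 708, 1268 and 1047 CPM in het and 1161, 1102, 961 and 1178 CPM in KO. Its log2 fold change of 0.13 ± 0.17 (edgeR adjusted p = 0.741) became -0.048 without het 2. H1f1 had 322, 293, 605 and 360 CPM in het and 467, 525, 376 and 504 CPM in KO, or 0.21 ± 0.20 (adjusted p = 0.647), a value that ran from 0.039 without het 2 to 0.49 without het 3. In both genes het 3 was highest and het 2 lowest, and KO 3 was the lowest of the KO libraries, the reverse of its place in H1f5 and H1f3.

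The H4 genes had 11 of 13 fold changes below 0 (10 with library totals as the only scaling), with a median of -0.13. H4c12 had 168, 183, 190 and 248 CPM in het 1 to 4 and 148, 87.98, 283 and 127 CPM in KO 1 to 4. H4c14, from the Hist2 cluster, had 179, 201, 357 and 333 CPM in het and 156, 151, 340 and 189 CPM in KO. In both, KO 3 was far above the other KO libraries, and log2 fold changes were -0.30 ± 0.28 (edgeR adjusted p = 0.640) and -0.37 ± 0.28 (adjusted p = 0.582). Omission of a library other than KO 3 brought them as near to 0 as -0.11 (without KO 2) and -0.20 (without het 3). H4c6, highest per kilobase, had 365, 324, 667 and 579 CPM in het and 426, 305, 586 and 416 CPM in KO, or -0.18 ± 0.24 (edgeR adjusted p = 0.741). Of its KO libraries, KO 2 lay just below the lowest het library and the others inside the het range. Hist1h4m ranged from 17.2 to 33.0 CPM and Hist1h4n from 14.8 to 31.0, with unique shares of 10.2% and 14.4%.

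The lowest and highest fold changes of the set were in H2B and H2A. H2bc11 had 32.6, 38.3, 52.3 and 62.2 CPM in het 1 to 4 and 26.6, 23.4, 63.5 and 28.7 CPM in KO 1 to 4, or -0.39 ± 0.30 on the log2 scale (edgeR adjusted p = 0.583). KO 3 was the highest of the 8 libraries and the other KO libraries the lowest 3. H2bc4 had 34.9, 30.2, 42.8 and 49.4 CPM in het and 27.1, 22.4, 55.4 and 29.8 CPM in KO, with the same order, at -0.24 ± 0.25 (edgeR adjusted p = 0.682). Omission of a library other than KO 3 brought H2bc11 as near to 0 as -0.21 (without het 4) and H2bc4 as near as -0.10 (without KO 2). H2aw, the Hist3 H2A gene, had 8.72, 7.20, 7.43 and 7.53 CPM in het and 7.56, 10.6, 8.85 and 11.2 CPM in KO, or 0.28 ± 0.15 (adjusted p = 0.526), with KO 1 inside the het range, and 0.19 without KO 4.

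The remaining named genes overlapped between genotypes. H2bc3 had 237, 163, 383 and 346 CPM in het 1 to 4 and 310, 304, 324 and 356 CPM in KO 1 to 4. H2bc15 had 295, 245, 375 and 411 CPM in het and 305, 279, 369 and 262 CPM in KO. Hist1h2bp had 18.3, 13.9, 29.0 and 27.4 CPM in het and 29.3, 22.6, 23.1 and 27.2 CPM in KO. In these H2B genes het 2 was the lowest library. H3c11 had 247, 183, 424 and 368 CPM in het and 332, 241, 336 and 324 CPM in KO, a log2 fold change of -0.02 ± 0.22 (edgeR adjusted p = 0.973) that became 0.014 with library totals as the only scaling. H2ac15 had 12.8, 8.21, 13.7 and 14.5 CPM in het and 13.8, 5.90, 16.7 and 14.9 CPM in KO. H2ac20 had 2.88, 2.58, 3.39 and 3.68 CPM in het and 2.97, 2.23, 2.54 and 2.54 CPM in KO, with 3 KO libraries below every het library. The 4 KO libraries of H2bc3, H2bc15 and H3c11 lay inside the het range.

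Without KO 3, 8 of the 51 genes passed the test, all lower in KO, where 14.7% of all genes passed, 12.6% lower and 2.06% higher. The histone share lower in KO, 15.7%, is near the 12.6% of all genes. Of the fold changes, 42 were below 0 and 9 above, with a median of -0.22 on the log2 scale beside 0.02 over all genes, and 13 genes (25.5%) had an unadjusted p under 0.05, where 29.7% of all genes did. In 5 of the 51 genes every KO library lay below every het library and in 0 above, where 27.9% of all genes did not overlap in either direction. All 13 H4 fold changes were below 0 (median -0.36), as were 9 of 10 in H3 (-0.11) and 13 of 15 in H2B (-0.24), while H1 had 3 above and 2 below. With KO 3 kept, the median over the 51 genes was -0.24 without het 2 and 0.08 without het 4, with 0 calls in both.

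**Figure D3:**
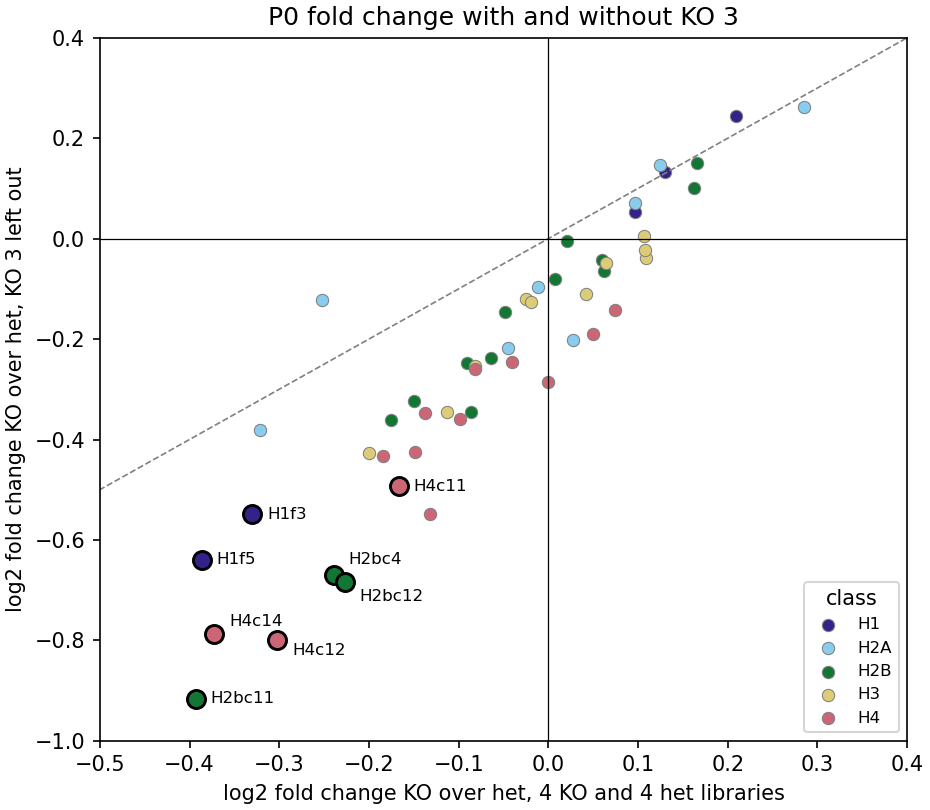
Each point is 1 of the 51 genes, coloured by class; axes are the log2 fold change KO over het in P0 retina with all 8 libraries (horizontal) and without KO 3 (vertical), and the dashed line marks equality. Most points fall below the line, and the 8 large labelled points are the genes called without KO 3, at -0.92 to -0.49.

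The 8 genes were H4c12, H4c14 and H4c11 (H4), H2bc11, H2bc4 and H2bc12 (H2B), and H1f5 and H1f3 (linker H1); H2bc12 and H4c11 fall outside the rule for named genes and are given to complete the count. Without KO 3, the log2 fold change of H2bc11 was -0.92 ± 0.18 (SE; edgeR adjusted p = 0.00371), of H4c12 -0.80 ± 0.16 (adjusted p = 0.00336) and of H4c14 -0.79 ± 0.20 (adjusted p = 0.0166). H2bc12 was at -0.68 ± 0.18 (edgeR adjusted p = 0.0188), H2bc4 at -0.67 ± 0.16 (adjusted p = 0.0101) and H4c11 at -0.49 ± 0.16 (adjusted p = 0.0460). H1f5 was at -0.64 ± 0.15 (edgeR adjusted p = 0.00986) and H1f3 at -0.55 ± 0.13 (adjusted p = 0.0132). The 5 without overlap were H4c12, H2bc11, H2bc4, H1f5 and H1f3. With KO 3 included none of the 8 passed. Of the other genes given above, none passed without KO 3: H4c6 was at -0.43 ± 0.21 (edgeR adjusted p = 0.183), H2ac20 at -0.38 ± 0.21 (adjusted p = 0.244) and H2bc15 at -0.32 ± 0.15 (adjusted p = 0.160). H2aw was at 0.26 ± 0.16 (edgeR adjusted p = 0.282), H1f1 at 0.24 ± 0.19 (adjusted p = 0.410) and H1f2 at 0.13 ± 0.16 (adjusted p = 0.620). H2ac15, Hist1h4n, Hist1h4m, H3c11, H2bc3 and Hist1h2bp ran from -0.20 to 0.15.

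**Figure D4:**
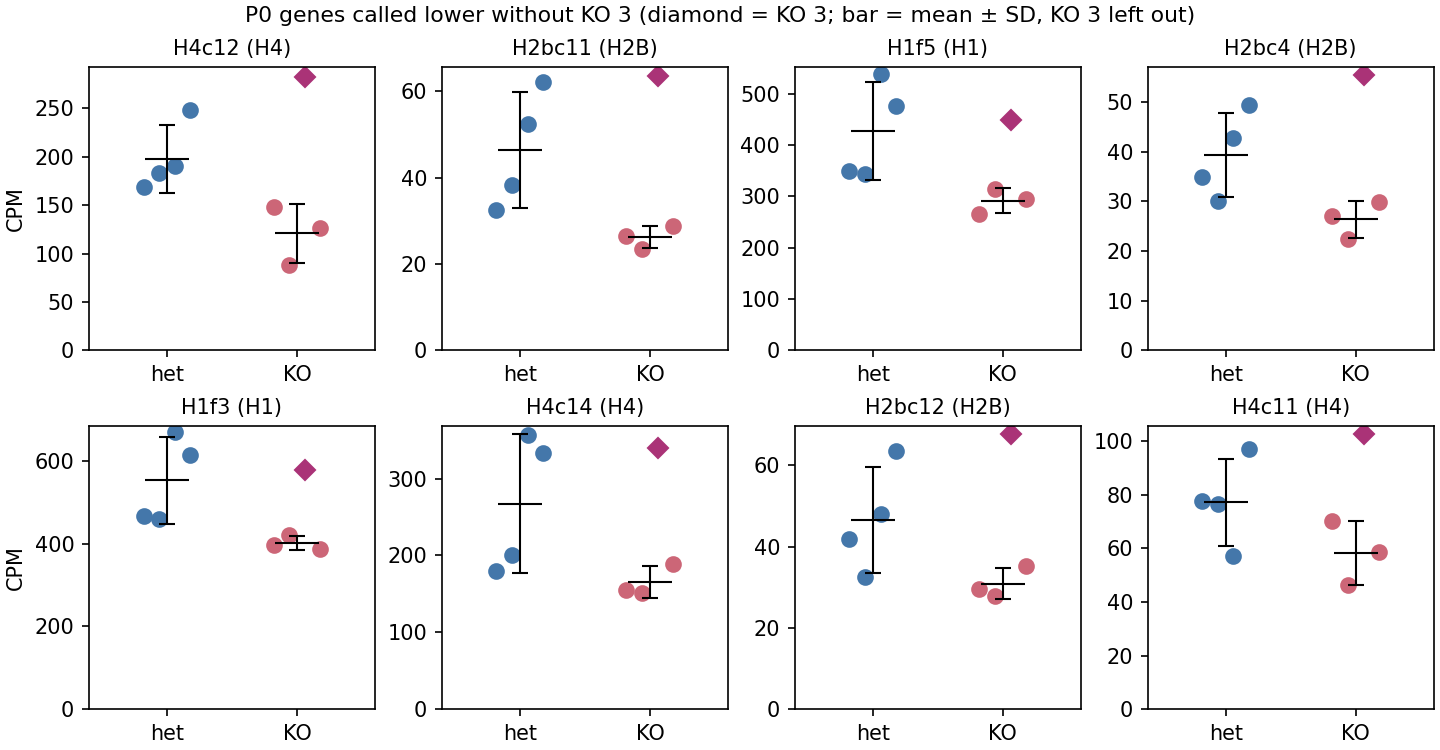
CPM of the 8 genes in each P0 library, het in blue and KO in red, with KO 3 as a diamond; bars are mean ± SD (n = 4 het, n = 3 KO without KO 3), and each vertical axis starts at 0. KO 3 sits above the other 3 KO libraries in every panel and above every het library for H4c12, H2bc11, H2bc4, H2bc12 and H4c11.

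KO 3 had 1.44 to 2.42 times the mean of the other KO libraries in these 8 genes, which the choice of genes that pass only without KO 3 favours. Their share of unique windows ran from 25.8% to 100%, with a median of 72.4% beside 56.2% in the other 43. Their mean level ran from 36.5 to 500 CPM. By gene the unique share was 100% in H1f5, 99.0% in H4c14, 97.7% in H1f3 and 25.8% in H2bc12. The part of read assignment between copies in the lower values was not tested.

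Summed by class and without KO 3, KO libraries had 0.785 times the het level for H4 (2413 ± 307 beside 3072 ± 949 CPM), 0.943 for H2B, 0.999 for H3, 1.04 for H2A and 1.02 for H1. The 3 KO libraries summed over all 51 genes to 9349 ± 882 CPM, 0.932 times het. Each of these differences was smaller than the SD among the het libraries.

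The genes around histone supply were read in the same fits, and with all 8 libraries none of these lists had a called gene. The counts without KO 3 that follow stand beside 12.6% of all genes lower and 2.06% higher. Of 13 genes for histone transcription and 3′ end formation Sympk, the scaffold of the cleavage complex, was lower (-0.42 ± 0.09 log2; edgeR adjusted p = 0.00719) and Casp8ap2, a histone locus body component, higher (0.32 ± 0.10; adjusted p = 0.0400). The list summed to 1033 to 1052 CPM in het and to 1053 to 1069 CPM in KO. Of 21 DNA replication genes 10 were lower and 1, Pola1, higher, led by the helicase subunit Mcm2 (-0.59 ± 0.08; edgeR adjusted p = 4.38e-04) and the polymerase subunit Pold1 (-0.64 ± 0.09; adjusted p = 5.14e-04). That list summed to 2215 to 2280 CPM in het, to 2028 to 2132 CPM in KO 1, 2 and 4 and to 2340 CPM in KO 3. Of 15 G2 and mitosis genes Aurkb and Plk1 were lower and Cenpe higher, a share lower near that of all genes. Fold changes were above 0 in 9 of the 15, and the list summed to 3969 to 4787 CPM in het, to 4908 to 5510 CPM in KO 1, 2 and 4 and to 4268 CPM in KO 3.

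Among 11 histone variant genes outside the chosen set, 6 were lower without KO 3 and 0 higher. H2ax, the variant phosphorylated at DNA breaks, whose gene also gives a hairpin mRNA in S phase, was at -1.09 ± 0.09 log2 (edgeR adjusted p = 4.16e-05), the linker H1f10 at -1.03 ± 0.14 (adjusted p = 4.06e-04) and Macroh2a2 at -0.62 ± 0.09 (adjusted p = 7.02e-04). Of 15 chaperones and acetylation factors, Daxx, Ubn1 and Chaf1a, the largest subunit of chromatin assembly factor 1, were lower. Their summed list went the other way, at 1753 to 1955 CPM in het, 1994 to 2155 CPM in KO 1, 2 and 4 and 1810 CPM in KO 3. Of the 9 progenitor markers 7 were lower, and the summed list lay below every het library in KO 1, 2 and 4 and above all of them in KO 3. Of the 51 histone genes, 14 had KO 3 above every het library. The part of progenitor number in the histone values was not tested. Among other markers without KO 3, Sag and Rp1 of 8 rod genes and Cryaa of 7 lens genes were higher and Kdr and Cldn5 of 7 endothelial genes lower. The rod list summed to 585 to 795 CPM in het, to 886 to 910 CPM in KO 1, 2 and 4 and to 585 CPM in KO 3, so KO 3 lay apart from the other KO libraries here too. The lens list stood at 103 CPM in KO 2 and at 19.5 to 33.0 CPM in the other libraries. No pigment epithelium, erythroid, microglial or astrocyte marker passed the test at P0.

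At P22 the table kept 13 of the 51 genes, or 25.5%, where 59.1% of all genes of the P0 table were kept. Of genes with a mean of 100 CPM or more at P0, 10 of 25 histone genes were kept beside 97.5% of all 2587 such genes. Between 10 and 100 CPM, 2 of 18 were kept beside 86.5% of all, and below 10 CPM 1 of 8 beside 18.4%. No H3 gene remained of 10, 1 of 8 H2A, 3 of 15 H2B, 5 of 13 H4 and 4 of 5 H1. The lowest mean of any gene in the P22 table was 4.24 CPM, so a gene that is missing may have lain below that level rather than at 0. The ages also differ in library kit, with ribosomal RNA depletion and random priming at P0 and a stranded total RNA kit at P22, so age and kit cannot be told apart and levels were not compared between ages.

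The genes kept had long annotated 3′ UTRs. Of the 13, 11 had at least 500 bases after the stop codon (median 1209), against 3 of the 37 other genes with a coding model (median 89); H2bu1-ps, a pseudogene, has none. The exceptions were H4c8 and H1f1, with 93 and 48 bases, among the kept genes, and H2ac6, H2bc9 and H3c4, with 2058, 1258 and 799 bases, among the others. The hairpin was found in 10 of the 13 and in 26 of the 28 others whose annotated 3′ UTR could hold it. Kept genes also had more exonic bases (median 1630 beside 522), a larger unique share (91.8% beside 50.4%) and a higher P0 level per kilobase (146 beside 105 CPM per kb). In read numbers, which depend on length, their median P0 level was 238 CPM beside 63.6 CPM. The parts of these properties were not separated. H4c6, at 1172 CPM per kb in P0, had the highest level of the genes not kept, with 74 bases after the stop codon and a unique share of 60.5%.

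**Figure D5:**
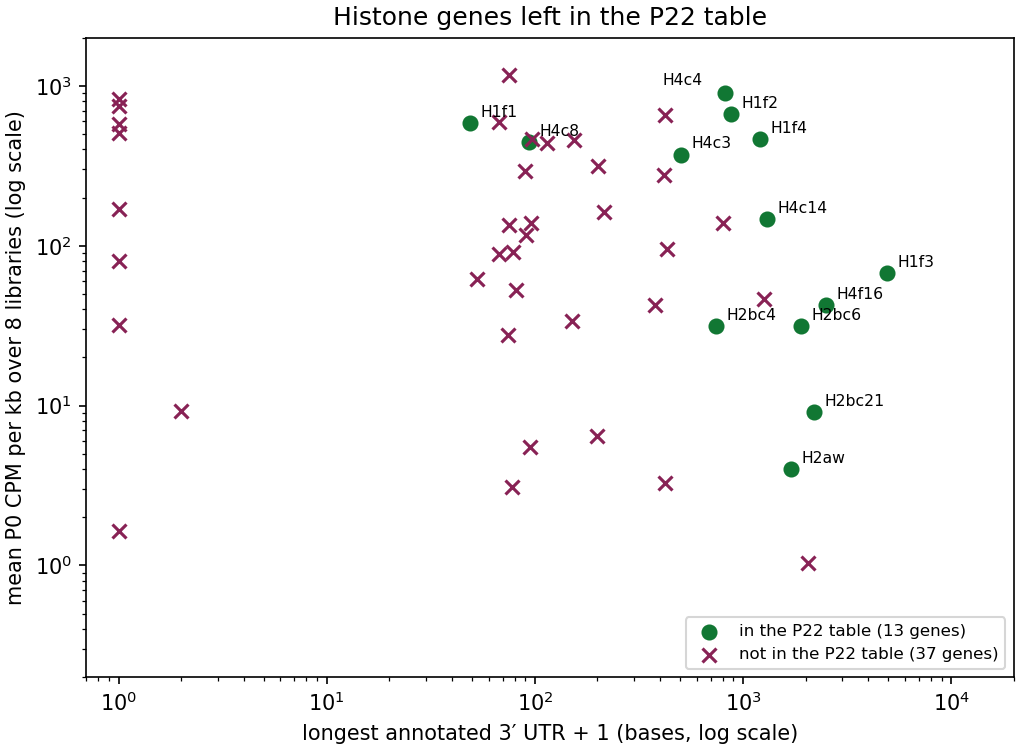
Longest annotated 3′ UTR plus 1 base (horizontal, log scale) against mean P0 CPM per kilobase of exon (vertical, log scale) for the 50 histone genes of the P0 table with a coding model. Green circles are the 13 genes in the P22 table, 11 of them at 500 bases or more, and purple crosses the other 37.

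The 13 genes summed to 673 and 497 CPM in P22 het 1 and 2 and to 328, 327, 515 and 551 CPM in KO 1 to 4, or 0.0327% to 0.0673% of a library. KO 1 and KO 2 were the lowest, and KO 3 and KO 4 lay between het 2 and het 1. KO 3 and KO 4 were both above KO 1 and KO 2 in 11 of the 13 genes. H1 genes made up 66.3% of the sum.

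None of the 13 passed the test at P22 (edgeR, adjusted p under 0.05), where 11.2% of all genes did, 6.41% lower and 4.74% higher. The numbers at an unadjusted p under 0.05 and by DESeq2 were 3 and 1 (H2bc4), where 28.8% and 12.8% of all genes passed. Of the fold changes 7 were above 0 and 6 below, with a median of 0.04 beside 0.04 over all genes. Over the 6 omissions of a library the median ran from -0.18 (without het 2) to 0.14 (without KO 1), and it was also below 0 without KO 3 or KO 4. In 5 of the 13 the genotypes did not overlap, 3 higher and 2 lower in KO, where 43.8% of all genes did not overlap.

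H1f2, the most abundant gene, had 296 and 211 CPM in het and 104, 108, 191 and 196 CPM in KO, all KO libraries below both het libraries. The fitted difference on the log2 scale was -0.88 ± 0.26 (SE, edgeR's adjusted p = 0.0538), and it passed without KO 3 (-1.04; adjusted p = 0.0457) or KO 4 (-1.03; adjusted p = 0.0349). Over the other 4 omissions of a library it ran from -1.13 (edgeR adjusted p = 0.0577, without het 2) to -0.63 (adjusted p = 0.209, without het 1). H2bc4, an H2B gene of the Hist1 cluster, had 59.6 and 60.3 CPM in het and 35.8, 39.1, 47.4 and 55.6 CPM in KO, again without overlap, at -0.58 ± 0.18 (edgeR adjusted p = 0.0589), and -0.69 (adjusted p = 0.0273) without KO 4. Over the other 5 omissions its edgeR adjusted p ran from 0.0773 (without KO 3) to 0.183 (without het 2). H1f4 had 185 and 106 CPM in het and 74.5, 62.4, 117 and 135 CPM in KO, with overlap, at -0.68 ± 0.30 (edgeR adjusted p = 0.160), and at -0.26 (adjusted p = 0.648) without het 1 or -1.07 (adjusted p = 0.0775) without het 2. H4c3 had 31.8 and 24.1 CPM in het and 14.0, 13.9, 22.9 and 28.0 CPM in KO, at -0.59 ± 0.29 (adjusted p = 0.205).

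The 3 genes with every KO library higher were H2aw, H2bc21 and H4c14. H2aw had 12.8 and 17.1 CPM in het and 21.6, 22.9, 18.5 and 26.4 CPM in KO, at 0.35 ± 0.19 (edgeR adjusted p = 0.240), or 0.66 (adjusted p = 0.208) without het 2. H2bc21 had 4.63 to 5.01 CPM in het and 6.06 to 8.49 in KO, and H4c14 had 6.13 to 8.55 and 9.37 to 16.2. Het 1 is the shallowest library, with 9 to 532 reads in each of the 13 genes, so its low values are coarse. Across the whole table it also stood apart, with a score of -50.7 on the first principal component beside -9.79 in het 2 and 7.29 to 20.4 in KO. H1f3 had 21.2 and 10.2 CPM in het and 10.9, 9.36, 15.5 and 10.9 CPM in KO. H2bc6 had 16.2 and 24.9 CPM in het and 21.1, 24.1, 24.4 and 31.2 CPM in KO, and H4c4 had 18.4 and 9.26 CPM in het and 10.2, 10.2, 20.2 and 20.3 CPM in KO. These last 3 overlapped between genotypes.

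Of the 13 genes, 3 had in the authors' deposited table a false discovery rate under 0.05, where 18.2% of all genes did. In the authors' deposited table H1f2 had a log2 fold change of -0.76 (false discovery rate 5.88e-04), H1f4 of -0.56 (0.0162) and H4c14 of 0.61 (0.0400). In the edgeR fit, in which none of the 3 passed, H4c14 was at 0.49 ± 0.29 (adjusted p = 0.284), and the 3 directions were the same.

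The P22 fits also held genes of the other lists, whose counts stand beside 6.41% of all genes lower and 4.74% higher. Srrt, a factor of the cap-binding complex, was lower among 11 genes of histone transcription and 3′ end formation (-0.45 log2; edgeR adjusted p = 0.0418), H2az2 among 7 histone variants (-0.50; adjusted p = 0.0381), and Pold1 among 9 DNA replication genes (-0.91; adjusted p = 0.0492). None of 11 chaperones passed, with 5 at an unadjusted p under 0.05 and Daxx lowest in p (-0.54; edgeR adjusted p = 0.0527), and Bub1b was lower among 3 G2 and mitosis genes. Of 6 progenitor markers 0 passed in edgeR, with 0 at an unadjusted p under 0.05, and their sum was 65.7 to 78.4 CPM in het and 86.3 to 94.8 in KO. Markers of rods, the most numerous cells of the mouse retina, were lower in 6 of 8, with sums of 70876 to 76498 CPM in het and 42604 to 51406 in KO. Higher were 3 of 5 astrocyte markers and 2 of 3 endothelial markers. Of 5 pigment epithelium markers Rlbp1 was higher and Dct lower. Rlbp1 was the only 1 of these 5 above 0, with 4 below and a median of -1.04 on the log2 scale. None of 2 erythroid and 2 microglial markers passed, and 0 of 9 lens markers were in the table. The part of these shifts in the histone values was not tested.

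Whether the genotype difference itself differed between ages was tested over the 11428 genes in both tables. None of the 13 histone genes passed (edgeR, interaction of genotype and age), where 4.1% of all genes did. The smallest p was that of H1f2, whose log2 fold change was lower at P22 than at P0 by -1.06 ± 0.33 (adjusted p = 0.0719). H1f2 stood at 0.13 at P0 and at -0.88 at P22, and the edgeR adjusted p of the difference was 0.0499 without P0 KO 3, 0.0394 without P22 KO 3 and 0.0468 without P22 KO 4. The other 11 omissions of a library did not pass, with adjusted p from 0.0524 (without P0 het 3) to 0.203 (without P22 het 1, at -0.82).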

How the data were processed

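Bulk RNA was sequenced from mouse retina at P0 (4 het, 4 KO) and P22 (2 het, 4 KO), and samples were grouped by the genotype in their labels. Per the submitters' processing notes, Trim Galore, STAR, HTSeq and edgeR were used with the mm10 build; versions, settings and strand use are not given in the sources used here. Each age is 1 deposited table of raw read counts per gene and library, not normalized, per the file headers. The authors' CPM, log2 fold change, log2 mean CPM, p-value and false discovery rate columns lie beside them, per the file headers, and those printed here are named as the authors'. The P22 table starts at a log2 mean CPM of 2.16 and the P0 table at -0.33 in the authors' columns.

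The genes and the other lists were chosen with earlier results of these data known, the omission of P0 KO 3 included. Identifiers were matched to GENCODE M21 without version (19305 of 19337 at P0, 11610 of 11613 at P22), which gave symbols, lengths, overlaps and transcript sequences. CPM were recomputed from the counts and the table totals. Tests were run in R 4.3.3 with edgeR 4.0.16 within each age (filterByExpr, TMM, glmQLFit, glmQLFTest), and p-values were adjusted after Benjamini and Hochberg across every gene of the table, with 0.05 as threshold. No gene was removed by the filter. The standard error was the size of the log2 fold change divided by the square root of F. The genotype by age term was fitted over 11428 genes. Class sums are given without a test. 1 gene of the progenitor marker list is not reported here, and the list's counts and sums leave it out.

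On simulated counts with 200 changed genes edgeR found 92.0% of 2-fold and 100% of 4-fold changes at P0 (19337 genes), with 11 false calls. At P22 (11613 genes) it found 78.0% and 100%, with 8 false calls. The simulation gave every gene the same spread, set no library apart and changed only genes above a minimum of reads. These shares therefore do not say how often changes in the histone genes would be found. No 2 libraries of a group agreed within sampling noise. P0 totals were 14974704 to 19772809 reads and P22 totals 1794862 to 22451839, so 3 reads correspond to at most 0.200 CPM at P0 and 1.67 CPM at P22 (counting error only).

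Values per library are given for genes with adjusted p under 0.05 at either age, the highest per kilobase of each class, the 4 smallest p-values in each direction at P0, the 5 smallest without KO 3 and, at P22, the 8 highest by CPM with the 3 smallest p-values. Of the other lists, called genes were named, at most the 3 smallest p-values of a list and age where many passed. H2bc12, H4c11, H2bc21, H4c8, H1f1 at P22, H2ac6, H2bc9 and H3c4 were named after their values were seen. Alternatives were library totals, DESeq2 1.42.0 size factors and Wald test, other filters, the replicate number as a block, class sums and leaving out each library.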

Additional observations from a re-analysis of the deposited data

Results flagged for a closer look

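Dixon's criterion was applied to the named genes, class sums and totals in P0 het, P0 KO and P22 KO. In 3 of the 57 groups of 4 libraries tested, all of them P0 KO, 1 library lay far from the other 3, and chance flags about 1 in 20 groups. H2bc11 had 63.5 CPM in KO 3, beside 23.4 to 28.7 CPM in the other KO libraries. H3c11 had 241 CPM in KO 2, beside 324 to 336 CPM in the others. The summed H1 genes had 3337 CPM in KO 4, beside 3266 to 3272 CPM in the other KO libraries.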

How the results depend on the processing

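The count of 0 called histone genes at P0 held in all alternatives except the omission of KO 3, with 0 to 8 over the 8 omissions of a library. At P22 the 0 became 1 with DESeq2 (H2bc4) and 0 to 2 over the 6 omissions. The interaction count was 0 to 1 when libraries were left out. The KO to het ratio of summed P0 CPM stayed between 0.903 and 1.09. The P0 median log2 fold change ran from -0.24 (without het 2) to 0.08 (without het 4). With the genes summed per class, for which no calls were counted, the medians were -0.01 at P0 and -0.21 at P22. Library totals as the only scaling moved the P22 median of all genes from 0.04 to 0.18, and that of the 13 genes to 0.19.

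Same-numbered het and KO libraries did not deviate together at P0 (r of -0.13, -0.13, -0.08 and -0.28). At P22 r was 0.19 and -0.09. The 2 het libraries there deviate from their mean by equal and opposite amounts, so these values cannot show pairing or its absence. The numbers were not taken as pairs at either age. Fitted with a block for the replicate number, P0 still had 0 calls, P22 had 4 (H1f2, H1f4, H2bc4 and H4c3, all lower) with a median of -0.41, and the interaction had 2 (H1f2 and H1f4). P22 KO 3 and KO 4 have no het of their number and add nothing to that fit, which at P22 compares 2 het with 2 KO libraries. The share of all genes called by these blocked fits is not given here. The 4 and 2 calls are therefore not read as a result about the histone genes.

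Fold changes (log2) that changed sign are given with their range when 1 library was left out, and the cause was not tested. At P0 these ranges were -0.048 (without het 2) to 0.27 for H1f2, -0.073 (without het 2) to 0.34 for H2bc3, -0.050 (without het 2) to 0.32 for Hist1h2bp, and -0.43 to 0.0088 (without het 3) for H4c6. H2ac15 ran from -0.20 to 0.25, below 0 without KO 3, KO 4 or het 2, and was -0.019 with the block. H3c11 ran from -0.24 to 0.18, above 0 without KO 2, het 3 or het 4, and was 0.014 with library totals and 0.051 with the block. At P22 H1f3 ran from -1.01 to 0.033 (without het 1), H2bc6 from -0.13 to 0.50, below 0 without KO 4 or het 1, and H4c4 from -0.43 (without het 2) to 0.56. With the block H2bc6 was at -0.037 and H4c4 at -0.41.

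Depth limits P22 het 1, where 3 reads are 1.67 CPM and the smallest histone value rests on 9 reads.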
